A study of Mus musculus with 18 samples.

Results

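The genes described here are those that mark the mast cell: its granule proteases, its histamine-making enzyme, its high-affinity receptor for IgE and its growth and activation receptors. They are Cma1, Mcpt4, Tpsb2, Tpsab1, Cpa3, Hdc, Fcer1a, Ms4a2, Kit and Mrgprb2, found by their symbols in the authors' gene tables, and they make 10 of the 55401 genes listed. Mast cells live in connective tissue, in skin especially, and store serine proteases and histamine bound to serglycin in their granules. When antigen cross-links IgE on the high-affinity receptor, the granules are released, and the cell depends on stem cell factor acting through Kit for its survival. Basophils share several of these genes, among them Cpa3, Hdc, Fcer1a and Ms4a2, and Kit is also used by melanocytes and by part of the lung endothelium.

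RNA from skin and lung of female wild-type (WT) mice was sequenced, with 3 libraries per tissue in each of 3 groups and 18 libraries in all. The series' design gives 3 mice a group, but the library codes of control and AD are not the same 3 in both tissues. Neither strain nor age is stated in the labels used here. Control mice were untreated. AD mice, the atopic dermatitis model, received 4 nmol calcipotriol (a vitamin D analogue, also called MC903) and 50 µg ovalbumin over 28 days, and La-Cer mice received the same agents together with an emollient that contains linoleic acid-ceramide. No group given the emollient alone is among the samples used here, and the labels do not say whether AD mice received a vehicle. The AD and La-Cer groups are set against the same control libraries, and La-Cer is set against the same AD libraries, so the comparisons within a tissue share samples.

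Skin libraries held between 13472283 and 18647521 counts and lung libraries between 15904723 and 19338972. Levels are given as CPM, counts scaled to the library total, after TMM scaling, which corrects each library for its composition, and a gene was called changed at an adjusted p under 0.05. The summed level of 4 keratins (Krt5, Krt14, Krt1, Krt10) ran from 6480 to 32700 CPM in skin and from 5.97 to 37.8 CPM in lung. That of 5 lung epithelial genes (Sftpc, Sftpb, Sftpa1, Ager, Scgb1a1) ran from 42900 to 108000 CPM in lung and from 4.42 to 64.4 CPM in skin. The skin libraries of 1 group differed widely in other tissue content: 4 skeletal muscle genes (Acta1, Ckm, Myh4, Mylpf) summed to 10900, 11100 and 37700 CPM in the control libraries, to 27800, 24600 and 5720 CPM in AD, and to 11700, 7950 and 1690 CPM in La-Cer. Control replicate 3 also stood apart in the 5 melanocyte genes (Dct, Tyr, Tyrp1, Pmel, Mlana), which summed to 110 CPM there against 1830 and 1600 CPM in the other control libraries. Bulk RNA cannot tell more cells of a type from more RNA per cell, and this holds for every level below.

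All 10 genes lie at the positions that GENCODE vM21 gives for the build GRCm38, and all are protein-coding loci measured over their exons. The chymases Cma1 (ENSMUSG00000022225, chr14:55941451-55944675) and Mcpt4 (ENSMUSG00000061068, chr14:56059629-56062313) lie in the same protease cluster on the minus strand of chromosome 14. The tryptases Tpsab1 (ENSMUSG00000024173, chr17:25343245-25345562, minus strand) and Tpsb2 (ENSMUSG00000033825, chr17:25366305-25369098, plus strand) are neighbours on chromosome 17. Carboxypeptidase Cpa3 (ENSMUSG00000001865) is at chr3:20215620-20242181, and the microRNA gene Mir7007 overlaps it, the only overlap found among the 10. Histidine decarboxylase Hdc (ENSMUSG00000027360) is at chr2:126593667-126619299. The IgE receptor subunits Fcer1a (ENSMUSG00000005339, alpha chain) and Ms4a2 (ENSMUSG00000024680, beta chain) are at chr1:173221284-173227214 and chr19:11615523-11623719. Kit (ENSMUSG00000005672) is at chr5:75574916-75656722, and Mrgprb2 (ENSMUSG00000050425) is at chr7:48550965-48558086. The related proteases among the 10 were compared in sequence. The best alignment of Tpsb2 and Tpsab1 transcripts was 76.3% identical over 900 bases, and that of Cma1 and Mcpt4 was 70.9% identical over 722 bases. Neither pair shared any run of 50 bases. Related genes outside the 10 were not compared, and how reads were assigned among related genes was not tested.

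GATA factors, Gata2 above all, are known regulators of mast cell and basophil genes, so the promoters of these genes were searched for AGATAA and TGATAA on both strands. RefSeq promoters (GRCm38.p6, from 250 bases before the start to 50 after) were given for 8 of the 10 genes, and 5 of these 8 held at least 1 such motif, against 18.6% of all 32851 promoters of the same length. The E-box letters CATGTG and CACGTG, searched in the same way, were in 1 of the 8 (Fcer1a) and in 20.4% of all promoters. The 250 bases before the start are shown for a chymase and the 3 IgE receptor and carboxypeptidase genes with a motif, and for 2 genes called in skin without one. Capitals mark the GATA letters as read on the gene's strand, and all 6 genes are on the minus strand.
Cpa3, chr3:20242182-20242431: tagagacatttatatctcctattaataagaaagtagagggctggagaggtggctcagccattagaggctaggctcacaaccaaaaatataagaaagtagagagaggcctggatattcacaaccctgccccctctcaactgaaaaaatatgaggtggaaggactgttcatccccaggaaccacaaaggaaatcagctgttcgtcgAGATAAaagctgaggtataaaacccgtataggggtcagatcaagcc
Ms4a2, chr19:11623720-11623969: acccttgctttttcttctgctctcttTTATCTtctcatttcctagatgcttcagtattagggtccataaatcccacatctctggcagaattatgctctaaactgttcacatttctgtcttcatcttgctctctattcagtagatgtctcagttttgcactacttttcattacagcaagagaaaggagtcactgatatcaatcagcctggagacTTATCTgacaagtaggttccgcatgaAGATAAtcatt
Fcer1a, chr1:173227230-173227479: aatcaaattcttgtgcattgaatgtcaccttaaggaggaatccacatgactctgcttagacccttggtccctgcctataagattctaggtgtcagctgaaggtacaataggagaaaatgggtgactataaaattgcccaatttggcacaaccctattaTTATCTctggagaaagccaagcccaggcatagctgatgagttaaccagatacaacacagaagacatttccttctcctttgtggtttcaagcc
Mcpt4, chr14:56062311-56062560: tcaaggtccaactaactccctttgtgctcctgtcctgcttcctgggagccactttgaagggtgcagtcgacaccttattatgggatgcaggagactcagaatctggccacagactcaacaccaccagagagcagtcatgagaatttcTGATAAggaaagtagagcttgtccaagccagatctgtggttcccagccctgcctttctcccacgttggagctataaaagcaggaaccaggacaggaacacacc
Cma1, chr14:55944676-55944925: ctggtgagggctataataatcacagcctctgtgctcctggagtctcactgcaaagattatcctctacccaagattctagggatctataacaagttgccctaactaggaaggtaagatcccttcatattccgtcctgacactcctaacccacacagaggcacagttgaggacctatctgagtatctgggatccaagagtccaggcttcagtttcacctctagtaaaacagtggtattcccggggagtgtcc
Hdc, chr2:126618679-126618928: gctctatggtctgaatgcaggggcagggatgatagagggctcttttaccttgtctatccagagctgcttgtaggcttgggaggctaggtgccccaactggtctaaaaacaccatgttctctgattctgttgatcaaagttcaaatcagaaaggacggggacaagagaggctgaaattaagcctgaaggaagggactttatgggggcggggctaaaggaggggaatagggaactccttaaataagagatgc
Ms4a2 held 3 GATA motifs, Cpa3, Fcer1a and Mcpt4 held 1 each, and Cma1 and Hdc, both called in skin, held none in this window. A match is a description of letters, not a site of binding.

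In skin, the AD group held more RNA of both chymases, both tryptases and histidine decarboxylase than the control group. Of the 9 genes high enough to test (Ms4a2 was too low), 5 rose, against 3.42% of all 16956 genes tested, and none fell, against 3.44% of all genes. Tpsab1, 1 of the 5, was high enough to test only through its AD libraries, the group where it was high. Its counts over the libraries of control, AD and La-Cer skin were 9, 104 and 5. Tpsab1 is also part of the shares and the median given next. An unadjusted p under 0.05 was reached by 7 of the 9, against 28.9% of all genes. The libraries of AD and control did not overlap for 7 of the 9, against 16.3% of all genes higher without overlap. The median log2 difference of the 9 was 2.19, against -0.05 over all genes. The remaining 4 were Cpa3 and Fcer1a, whose values were higher in AD without passing the test, and Kit and Mrgprb2, whose mean values were lower in AD without passing it.

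Cma1, a chymase that cleaves peptides and matrix proteins, stood at 1.4, 0.801 and 1.28 CPM in the 3 control skin libraries. In AD skin it stood at 9.3, 19.6 and 30 CPM, and in La-Cer skin at 6.91, 2.3 and 2.96 CPM. Each AD library was above each La-Cer library, and each La-Cer library was above each control. From a control mean of 1.16 ± 0.317 (SD, n = 3) to an AD mean of 19.6 ± 10.3 (SD, n = 3), the log2 difference was 4.07 ± 0.61 (SE; adjusted p = 0.0413, edgeR's quasi-likelihood test with Benjamini-Hochberg adjustment over all genes). Mcpt4, the chymase that breaks down several proinflammatory and matrix substrates in connective tissue, was 3.36, 1.73 and 3.23 CPM in control, 7.03, 21.9 and 9.11 CPM in AD and 5.43, 3.69 and 2.16 CPM in La-Cer skin. Its log2 difference between AD and control was 2.19 ± 0.56 (SE; edgeR adjusted p = 0.0473), and La-Cer libraries overlapped the control range.

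Tpsb2, a tryptase kept active as a heparin-bound tetramer, was 1.73, 0.986 and 1.34 CPM in control skin. It was 6.06, 8.52 and 3.83 CPM in AD and 2.72, 2.01 and 2.32 CPM in La-Cer. The 3 groups did not overlap, and the log2 difference between AD and control was 2.17 ± 0.48 (SE; edgeR adjusted p = 0.0417). Tpsab1, the other tryptase, had few counts outside AD: 9 over the 3 control libraries and 5 over the 3 La-Cer libraries, against 104 in AD. Its levels were 0.327, 0 and 0.111 CPM in control, 2.26, 2.08 and 2.82 CPM in AD and 0, 0.0479 and 0.216 CPM in La-Cer. The AD libraries lay far above all the others, with a log2 difference of 3.90 ± 1.02 (SE; edgeR adjusted p = 0.0481) to control. A library at 0 here still allows up to 3 counts, and this limit covers counting error only.

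Cpa3, the carboxypeptidase that trims peptides at their C-terminal end and is stored beside the chymases, was 1.77, 0.554 and 0.835 CPM in control, 2.26, 3.71 and 2.75 CPM in AD and 1.47, 1.15 and 0.647 CPM in La-Cer skin. All AD libraries lay above the others, but the log2 difference to control of 1.45 ± 0.60 (SE) did not pass the test (edgeR adjusted p = 0.143).

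Hdc, which makes histamine from histidine, was 0.794, 1.11 and 1 CPM in control and 0.466, 1.1 and 0.808 CPM in La-Cer skin, and it was 1.35, 8.45 and 25.3 CPM in AD skin. Replicate 1 of AD was only just above the highest control, while replicates 2 and 3 were far above it. The log2 difference to control was 3.59 ± 0.87 (SE; edgeR adjusted p = 0.0443), and without AD replicate 3 it was 2.33 with an adjusted p of 0.128. Hdc is also made by neutrophils and basophils. The summed level of 6 neutrophil genes (Retnlg, Csf3r, Cxcr2, S100a8, S100a9, Ly6g) had the same order of AD libraries, at 41.7, 224 and 801 CPM, against 9.1, 16.6 and 9.02 CPM in control and 19.3, 6.9 and 33.6 CPM in La-Cer; S100a8 and S100a9, which make up most of it, are also made by keratinocytes. The summed level of 3 basophil genes (Mcpt8, Prss34, Cd200r3) was 0.122, 4.3 and 8.1 CPM in AD and at most 0.155 CPM in any control or La-Cer library. Prss34 had 0 counts in AD skin, so the AD sum is that of Mcpt8 and Cd200r3. Of the 6 neutrophil genes 4 were tested in AD against control skin, and 2 of them rose, against 3.42% of all genes. Csf3r was 0.122, 3.56 and 3.98 CPM in AD against 0.28, 0.493 and 0.724 CPM in control skin. Cxcr2 was 0.795, 3.04 and 1.81 CPM against 0.84, 0.308 and 0.167 CPM, so both overlapped control through AD replicate 1. Retnlg and Ly6g, without a count in control, were 0.183, 0.741 and 1.45 CPM and 0, 0.0741 and 1.08 CPM in AD. How much of Hdc belongs to each cell type was not tested.

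The 2 IgE receptor genes had few counts in skin, most of them in AD libraries. Fcer1a, the chain that binds IgE, had 2 counts over the 3 control libraries, 39 in AD and 19 in La-Cer. Its levels were 0, 0 and 0.111 CPM in control, 0.856, 1.26 and 0.578 CPM in AD, and 1.24, 0 and 0.162 CPM in La-Cer. The AD to control ratio of counts per library size was 24.8 (95% exact interval 6.43 to 212, counting error only), and the edgeR test gave an adjusted p of 0.1. In La-Cer, replicate 1 alone was as high as AD. Ms4a2, the chain that amplifies the receptor's signal, had 2, 50 and 3 counts in control, AD and La-Cer. Its AD levels of 0.306, 1.26 and 2.02 CPM were all above the control levels of 0.0467, 0 and 0.0557 CPM and the La-Cer levels of 0.0776, 0.0479 and 0.0539 CPM. The count ratio of AD to control was 31.8 (95% exact interval 8.36 to 270), and that of AD to La-Cer was 20 (6.45 to 100). Ms4a2 followed the order of the AD libraries seen in the basophil genes, and the part of basophils in it was not tested.

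Kit did not follow the proteases. It was 46, 45.9 and 4.45 CPM in control, 17.6, 5.41 and 6.07 CPM in AD, and 7.84, 7.38 and 44.9 CPM in La-Cer skin. The high libraries were control replicates 1 and 2 and La-Cer replicate 3, and every group overlapped another. The log2 difference of AD to control was -1.73 ± 0.94 (SE; edgeR adjusted p = 0.251). Those 3 libraries also had the highest sums of the 5 melanocyte genes, at 1830, 1600 and 2780 CPM, against 98.2 to 585 CPM in the other 6. Over the 9 skin libraries the correlation of Kit with each of the 5 proteases ran from -0.63 to -0.23 (Pearson's r of log2 CPM, a description across 9 libraries that share the groups).

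Mrgprb2, the receptor through which basic peptides and drugs activate mouse connective tissue mast cells without IgE, was 0.84, 1.79 and 11.1 CPM in control, 2.14, 0.889 and 1.95 CPM in AD, and 0.0776, 9.35 and 1.72 CPM in La-Cer skin. The 2 high libraries were control replicate 3 and La-Cer replicate 2, and the groups overlapped throughout. The log2 difference of AD to control was -1.46 ± 1.26 (SE; edgeR adjusted p = 0.473), and without control replicate 3 it was 0.40. With the 5 proteases its correlation over the 9 skin libraries ran from -0.33 to -0.02, whereas the proteases correlated with each other at 0.75 to 0.93 over their 10 pairs and with Hdc at 0.55 to 0.77.

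**Figure D1:**
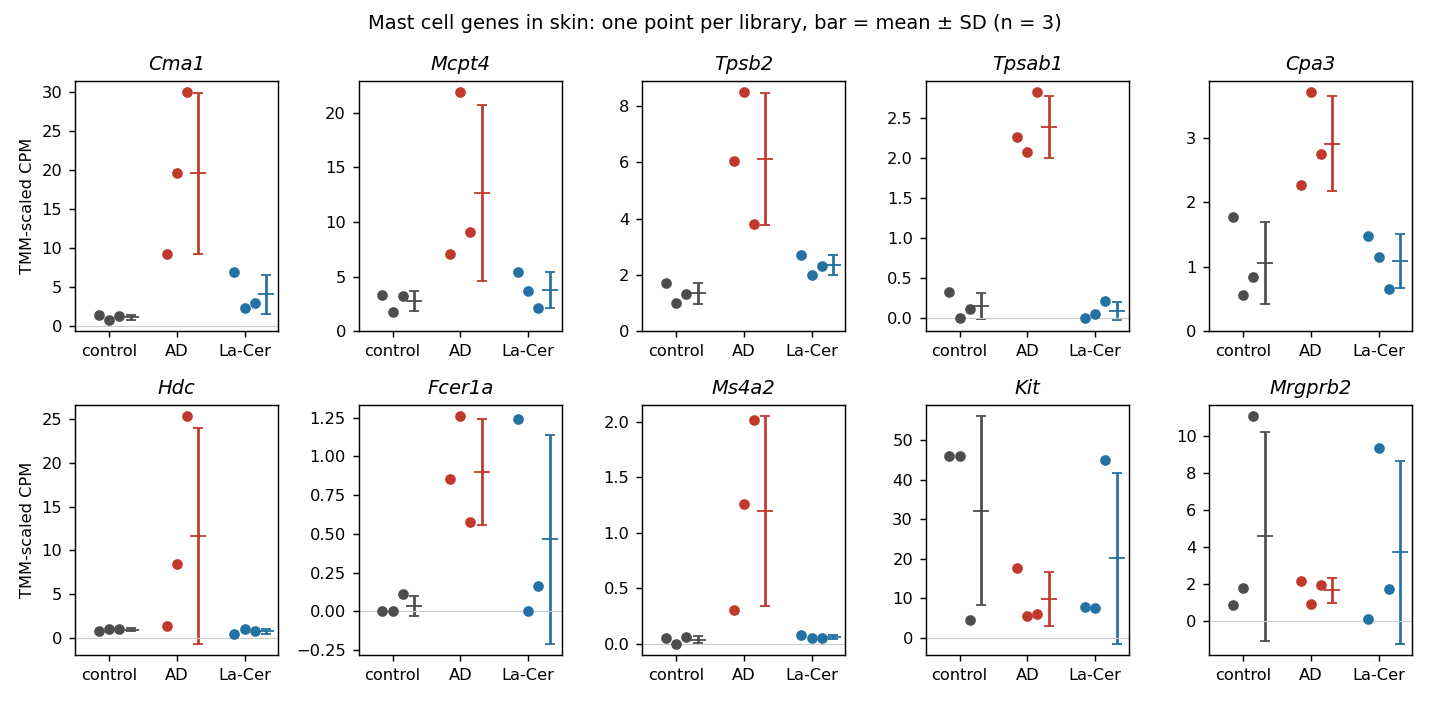
Levels of the 10 genes in skin, in TMM-scaled CPM on linear axes, with 1 panel for each gene, 1 point for each library and a bar for the mean ± SD of the 3 libraries of a group. The AD libraries lie above all control libraries for the 5 proteases, Hdc, Fcer1a and Ms4a2, while the high Kit and Mrgprb2 libraries are in the control and La-Cer groups.

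The 5 calls in skin rest close to the threshold. All calls of this comparison have adjusted p-values between 0.0413 and 0.05, and with the length and GC trend of each library removed none of the 5 passed (Cma1 3.42, adjusted p = 0.0725; Mcpt4 1.57, adjusted p = 0.147; Tpsb2 2.01, adjusted p = 0.0725; Tpsab1 3.79, adjusted p = 0.0834; Hdc 3.94, adjusted p = 0.0725). Without control replicate 3 only Cma1 passed (log2 difference 4.19, adjusted p = 0.0344), and without control replicate 1 or 2, any 1 AD replicate or La-Cer replicate 3 the count was 0. Without La-Cer replicate 2 the calls were Cma1, Tpsb2 and Ms4a2, and without La-Cer replicate 1 they were all 5 genes and Ms4a2. In these fits Ms4a2 passed the filter on low counts, but only through its AD libraries, the group where it was high. Its counts over all libraries of control, AD and La-Cer skin were 2, 50 and 3. The direction was kept for all 5 genes in each case. All 5 passed with other scaling, with no filter on low counts, with DESeq2 and with limma's voom. Over all genes 1163 were called in the main fit, 1088 without La-Cer replicate 1, 978 without La-Cer replicate 2 and 535 without control replicate 3. Without AD replicate 3 only 2 were called, and in the remaining fits that left out 1 library 0 were. These losses were therefore not particular to the 5 genes.

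In La-Cer against AD skin no gene of the whole table passed the test, and so none of the 9 did; the values of the proteases and Hdc were lower in La-Cer, and those of Kit and Mrgprb2 were not. The share of all genes called was 0, and 18.9% had an unadjusted p under 0.05, which was also true of 6 of the 9 genes. For 6 of the 9 the La-Cer libraries all lay below the AD libraries, against 9.48% of all genes. The 6 were Cma1, with a log2 difference of -2.28 ± 0.56 (SE; edgeR adjusted p = 0.141), Mcpt4 (-1.76 ± 0.55), Tpsb2 (-1.39 ± 0.47), Tpsab1 (-4.58 ± 1.09), Cpa3 (-1.41 ± 0.60) and Hdc (-3.85 ± 0.89), with adjusted p-values from 0.141 to 0.244. Their median with the other 3 was -1.41, against 0.02 over all genes. Here too Tpsab1 was high enough to test only through its AD libraries. Fcer1a overlapped (-1.01 ± 1.23), as did Kit (1.05 ± 0.93) and Mrgprb2 (1.17 ± 1.25). DESeq2 called Cma1, Mcpt4, Tpsab1, Hdc and Ms4a2 in this comparison, and edgeR without a filter on low counts called Cma1, Tpsab1 and Hdc. Over all genes, the alternative settings other than leaving out a library called 0 to 892.

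Against control skin, La-Cer skin showed no called gene of the 9, and again none in the whole table, where 5.71% had an unadjusted p under 0.05. Cma1 was above control in each La-Cer library, with a log2 difference of 1.79 ± 0.57 (SE; unadjusted p = 0.00969, edgeR adjusted p = 0.836), and so was Tpsb2, with 0.79 ± 0.47 (SE). These were the 2 genes without overlap, against 6.48% of all genes. The other proteases overlapped control, at 0.43 ± 0.55 for Mcpt4, -0.68 ± 1.14 for Tpsab1 and 0.03 ± 0.60 for Cpa3, as did Hdc at -0.26 ± 0.84. Fcer1a had 19 counts in La-Cer against 2 in control, a ratio of 10.1 (95% exact interval 2.44 to 89.4), but most of these came from La-Cer replicate 1.

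In lung the protease pattern of the skin was not seen. None of the 9 genes tested in AD against control lung was called (Mrgprb2 was too low, at 11, 7 and 3 counts in control, AD and La-Cer), where 0.0463% of all 17272 genes tested were called. Their median log2 difference was -0.11, against 0.01 over all genes, and 2 of the 9 had an unadjusted p under 0.05, against 20.9% of all genes. DESeq2 called 1 of the genes, limma with voom called 3, and edgeR called 1, Ms4a2, without control replicate 1 (adjusted p = 0.0391). Over all genes 8 were called in the main fit and 992 without control replicate 1. The alternative settings other than leaving out a library called 0 to 2088.

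The protease levels in lung overlapped between AD and control for all 5. Cma1 was 6.13, 2.02 and 1.87 CPM in control, 0.657, 2.41 and 1.92 CPM in AD and 3.93, 3.02 and 3.34 CPM in La-Cer lung, with a log2 difference of -1 ± 0.56 (SE; edgeR adjusted p = 0.335) between AD and control. Mcpt4 was 6.75, 4.38 and 6.1 CPM in control, 2.27, 3.1 and 8.25 CPM in AD and 4.62, 2.4 and 5.09 CPM in La-Cer. Tpsb2 was 3.62, 1.91 and 1.75 CPM in control, 0.537, 2.13 and 0.282 CPM in AD and 3.03, 1.33 and 2.23 CPM in La-Cer, with a log2 difference of -1.30 ± 0.68 (SE; edgeR adjusted p = 0.299) between AD and control. Control replicate 1 was the highest control library for each of the 5 proteases, and its summed level of 3 adipocyte genes (Adipoq, Plin1, Fabp4) was also the highest of the lung libraries, at 2580 CPM against 11.1 to 515 CPM in the other 8. Tpsab1 stayed between 0 and 1.35 CPM in all lung libraries. Cpa3 was 6.99, 4.16 and 1.33 CPM in control, 2.03, 12.5 and 2.94 CPM in AD and 6.37, 5.32 and 4.51 CPM in La-Cer, and its single high value was in AD replicate 2. Correlations among the 5 proteases over the 9 lung libraries ran from -0.37 to 0.72, over 10 pairs.

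Ms4a2 was the only one of these genes with a call in lung. It was 0.491, 0.337 and 0.785 CPM in control, 2.51, 12.8 and 4.46 CPM in AD and 0.69, 0.818 and 0.742 CPM in La-Cer lung, from 27, 344 and 43 counts. Every AD library lay above every other library. AD against control gave a log2 difference of 3.61 ± 0.63 (SE; edgeR adjusted p = 0.0568), just short of the threshold, and it was the 1 gene of the 9 without overlap, against 12.3% of all genes higher. La-Cer against AD gave -3.12 ± 0.61 (SE; edgeR adjusted p = 0.0424), so Ms4a2 fell; it was the only one of the 9 called there, against 1.07% of all genes called lower. It was also the only one lower without overlap, against 22.1% of all genes. Cma1 and Hdc were higher in La-Cer than in AD lung without overlap, as were 22.5% of all genes. Without AD replicate 2 the log2 difference was -2.20 (adjusted p = 0.104); the call was kept without control replicate 1 (adjusted p = 0.00899) and was lost on leaving out any other single library, with adjusted p-values of 0.0586 to 0.216. Removing the length and GC trend gave -2.72 (edgeR adjusted p = 0.0732). Over all genes 330 were called in the main fit, 4972 without control replicate 1, and at most 27 without any other single library.

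Fcer1a, the partner of Ms4a2 in the receptor, was 0.552, 0 and 0.121 CPM in control, 0.836, 2.76 and 0.339 CPM in AD and 0.372, 0.716 and 0.583 CPM in La-Cer lung. Its highest library was the same AD replicate 2, the groups overlapped, and the log2 difference of AD to control was 2.54 ± 1.02 (SE; edgeR adjusted p = 0.205). The basophil genes had the same order of AD libraries as Ms4a2 in lung: their sum was 4.9, 51.5 and 8.08 CPM in AD, against 0.982, 0.393 and 0.362 CPM in control and 1.65, 1.53 and 1.06 CPM in La-Cer. Mcpt8, a basophil protease, had 690 counts in AD against 16 in control and 40 in La-Cer, and Prss34, another, had 192 against 0 and 12. Mcpt8 gave a log2 difference of 5.34 ± 1.11 (SE; edgeR adjusted p = 0.0767) between AD and control and of -4.23 ± 1.01 (SE; edgeR adjusted p = 0.0601) between La-Cer and AD, so neither passed. The part of basophils in the Ms4a2 and Fcer1a levels was not tested.

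**Figure D2:**
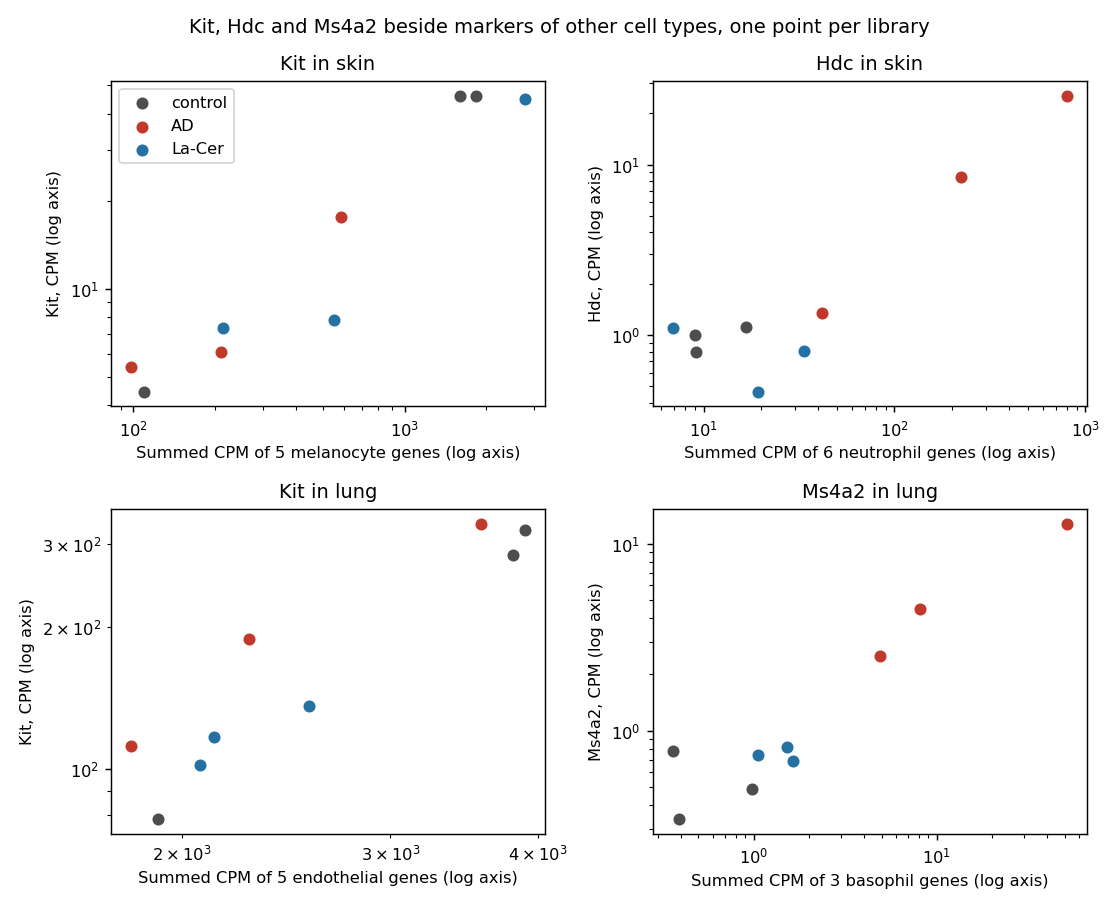
Kit, Hdc and Ms4a2 plotted against summed markers of other cell types, with 1 point for each library and colours for the groups, in TMM-scaled CPM on log axes. The high-Kit skin libraries have the highest melanocyte sums, the AD skin libraries with high Hdc have the highest neutrophil sums, and the AD lung libraries with high Ms4a2 have the highest basophil sums.

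Hdc and Kit were the most abundant of the 10 genes in lung. Hdc was 75.8, 58.9 and 51.7 CPM in control, 63.2, 97.4 and 79.5 CPM in AD and 112, 98.8 and 107 CPM in La-Cer lung. All La-Cer libraries lay above all AD and all control libraries. The log2 difference of La-Cer to control was 0.77 ± 0.22 (SE; unadjusted p = 0.00642, edgeR adjusted p = 0.999) and that of La-Cer to AD was 0.40 ± 0.22 (SE; edgeR adjusted p = 0.28), and neither passed. In La-Cer against control lung none of the 9 was called by edgeR, where 0.0347% of all genes were, while limma with voom called 4 and DESeq2 0. Over all genes, the alternative settings other than leaving out a library called 0 to 5229, against 6 in the main fit. Of the 9, Hdc alone had an unadjusted p under 0.05, against 3.17% of all genes, and it was the only one of the 9 without overlap, against 5.64% of all genes higher. Kit was 78.2, 284 and 321 CPM in control, 332, 189 and 112 CPM in AD and 102, 136 and 117 CPM in La-Cer lung. Its spread within control and AD exceeded the difference between them (-0.11 ± 0.51, SE). The summed level of 5 endothelial genes (Pecam1, Cdh5, Kdr, Tek, Emcn) was 1910, 3810 and 3900 CPM in control, 3580, 2280 and 1810 CPM in AD and 2070, 2560 and 2130 CPM in La-Cer lung, the same order of libraries as Kit within each of the 3 groups. The part of endothelium in the Kit level was not tested.

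**Figure D3:**
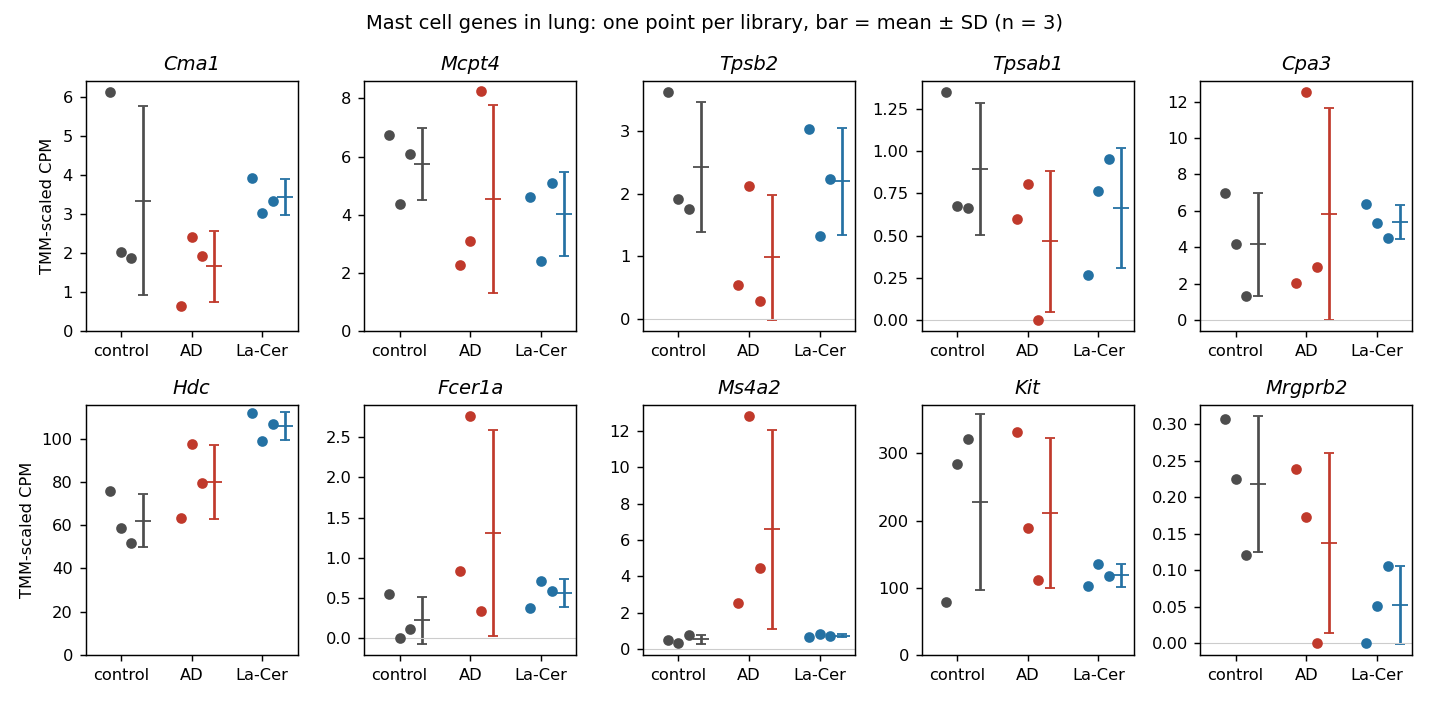
Levels of the 10 genes in lung, in TMM-scaled CPM on linear axes, with 1 panel for each gene, 1 point for each library and a bar for the mean ± SD of the 3 libraries of a group. The AD libraries stand above the rest for Ms4a2, at 2.51 to 12.8 CPM, and the La-Cer libraries stand above the rest for Hdc, at 98.8 to 112 CPM.

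The effect of the AD treatment differed between skin and lung for 5 of the 10 genes, in a test of the difference itself over all 18 libraries. All 5 had the higher AD effect in skin, which was called for 9.44% of all 19129 genes tested. Cma1 had a difference between the 2 log2 effects of 5.14 ± 0.85 (SE; edgeR adjusted p = 0.00687), Mcpt4 of 2.6 ± 0.77 (adjusted p = 0.0337), Tpsb2 of 3.55 ± 0.85 (adjusted p = 0.0158), Tpsab1 of 4.91 ± 1.41 (adjusted p = 0.0306) and Hdc of 3.30 ± 0.85 (adjusted p = 0.0206). The Cma1 call held in each of the 25 alternative settings tried, and that of Tpsb2 in 24. The count of 5 was 2 without lung control replicate 1 or lung AD replicate 1, and 3 without skin control replicate 1 or 2 or skin AD replicate 3. Over all genes 2819 were called in the main fit, and 1001 to 3213 on leaving out 1 library. Cpa3 (1.03 ± 0.94), Fcer1a (1.94 ± 1.89), Ms4a2 (1.28 ± 1.08), Kit (-1.52 ± 1.12) and Mrgprb2 (-0.72 ± 1.92) did not pass. For the La-Cer effect against AD the difference between skin and lung was called for 2 of the 10, against 1.25% of all genes in that direction: Cma1 at -3.38 ± 0.82 (SE; edgeR adjusted p = 0.0482) and Hdc at -4.27 ± 0.87 (SE; edgeR adjusted p = 0.0373). This count was 0 without skin control replicate 2, skin AD replicate 3, skin La-Cer replicate 2 or 3, or any 1 of the lung AD or lung La-Cer libraries. It was 1 without skin control replicate 1, skin AD replicate 1 or 2, or lung control replicate 2, and 3 without lung control replicate 1. Over all genes 309 were called in the main fit, and 6 to 2266 on leaving out 1 library. The test treats libraries as separate mice, although some codes in the file headers recur in both tissues.

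Between untreated skin and lung 5 of the 10 genes were called, a share close to the 42.8% of all genes called in either direction. In control skin against control lung, Hdc (-5.91 ± 0.72, SE; edgeR adjusted p = 4.82e-06), Ms4a2 (-3.58 ± 0.95; adjusted p = 0.00553), Kit (-2.74 ± 0.84; adjusted p = 0.0139) and Cpa3 (-1.87 ± 0.69; adjusted p = 0.0365) were lower in skin on the log2 scale, and Mrgprb2 was higher (4.44 ± 1.28; adjusted p = 0.00974). The Cpa3 libraries of the 2 tissues overlapped. Of all genes, 24.3% were called lower and 18.5% higher in skin, beside 4 and 1 of these 10; without skin control replicate 3 the calls were 3 lower and 0 higher. Levels compared between genes, per kilobase of exon, were in control skin highest for Kit at 3.6 CPM per kb, then Mcpt4 at 2.5, Mrgprb2 at 2.21, Cma1 at 1.06, Tpsb2 at 0.845 and Cpa3 at 0.695, with each of these overlapping the next. Hdc followed at 0.152 CPM per kb, apart from Cpa3, and then Tpsab1, Fcer1a and Ms4a2, from 0.0697 down to 0.0121. In AD skin Cma1 led at 18 CPM per kb and Mcpt4 followed at 11.5, both apart from Tpsb2 at 3.85. In control lung Kit led at 25.6 CPM per kb and overlapped Hdc at 9.74, which was apart from Mcpt4 at 5.18, and in La-Cer lung Hdc led at 16.6, apart from Kit at 13.3.

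Other genes of the mast cell pathways are given by list. The granule proteoglycan serglycin (Srgn), to which the proteases are bound, was 8.03, 4.13 and 4.29 CPM in control and 8.5, 21.4 and 107 CPM in AD skin, with a log2 difference of 3.05 ± 0.85 (SE; edgeR adjusted p = 0.0562); neutrophils make it too. Its AD effect was higher in skin than in lung, by 3.16 ± 0.87 (SE, edgeR adjusted p = 0.0265), a call made for 9.44% of all genes. Srgn was the only one of 9 other granule genes tested in skin, and Mcpt9 had no count in either tissue. Of 14 genes of IgE receptor signalling, 13 were tested in skin and none was called in AD against control, with a median log2 difference of 0.95. The 2 with the highest mean level over all 9 skin libraries were the phospholipases Plcg1, at 111, 94.9 and 76.6 CPM in control and 54.3, 70.7 and 122 CPM in AD, and Plcg2, at 8.68, 9.98 and 27.8 CPM in control and 16.6, 36.1 and 18.6 CPM in AD. In lung 14 were tested and none was called in any of the 3 lung comparisons. The difference between tissues in the AD effect was called for 2 of the 14, a share near the 14.7% of all genes called in either direction: the adaptor Lcp2 was higher in skin (2.59 ± 0.77, SE; edgeR adjusted p = 0.0343) and the kinase Syk lower (-2.50 ± 0.73, SE; edgeR adjusted p = 0.0312).

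Of 8 genes of histamine handling, 4 were tested in skin and none was called in any of the 3 skin comparisons. The methyltransferase Hnmt, which inactivates histamine, was 2.52, 1.79 and 5.12 CPM in control and 6.48, 5.56 and 6.79 CPM in AD skin, and the vesicle transporter Slc18a2, which loads histamine into granules, was 6.91, 5.18 and 2.12 CPM in control and 0.795, 2.74 and 7.66 CPM in AD skin. In lung 6 were tested, and Aoc1, the diamine oxidase that degrades histamine, was the 1 that rose from AD to La-Cer, against 0.845% of all genes. It was 7.79, 4.32 and 4.89 CPM in control, 1.49, 1.26 and 2.99 CPM in AD and 15, 9.05 and 13.2 CPM in La-Cer lung, so the 3 groups did not overlap. Its log2 difference of La-Cer to AD was 2.69 ± 0.41 (SE; edgeR adjusted p = 0.0353), and that of AD to control was -1.56 ± 0.40 (SE; edgeR adjusted p = 0.11).

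Of 6 lipid mediator genes 1 rose in AD skin, against 3.42% of all genes: Ltc4s, the synthase of cysteinyl leukotrienes. It was 3.27, 4.19 and 4.95 CPM in control, 30.9, 9.86 and 13.2 CPM in AD and 14.4, 8.2 and 4.58 CPM in La-Cer skin, with a log2 difference of 2.12 ± 0.54 (SE; edgeR adjusted p = 0.0472) between AD and control. In lung 1 of the 6, the prostaglandin synthase Ptgs2, rose in AD. It was the only gene called higher there, 1 of all 17272 tested (0.00579%). Leaving out lung AD replicate 1 or 2, or any 1 La-Cer lung library, left 0 genes called in AD against control lung. In La-Cer against AD lung Ptgs2 fell, as did 1.07% of all genes. It was 14.5, 10.6 and 10.7 CPM in control, 51.4, 39.5 and 39 CPM in AD and 11.3, 13.4 and 11.4 CPM in La-Cer. The log2 differences were 1.86 ± 0.21 (SE; edgeR adjusted p = 0.0313) for AD to control and -1.84 ± 0.21 (SE; edgeR adjusted p = 0.0137) for La-Cer to AD. Ptgs2 is made by many cell types, among them macrophages and fibroblasts.

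Of 12 genes that hold the Kit ligand, cytokine receptors and transcription factors of mast cells, 10 were tested in skin and 11 in lung, and none was called in any comparison within a tissue. The Kit ligand Kitl, the most abundant of them, was 107, 84.8 and 23.7 CPM in control, 28.1, 30 and 47.4 CPM in AD and 22.9, 15.6 and 106 CPM in La-Cer skin. Its high libraries were the same as those of Kit. Gata2, the GATA factor named above, was 2.38, 1.73 and 3.06 CPM in control skin. It was 2.81, 4.82 and 6.65 CPM in AD and 2.79, 1.2 and 1.78 CPM in La-Cer skin. Its log2 difference between AD and control was 0.99 ± 0.51 (SE, edgeR adjusted p = 0.228).

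Some markers of other leukocytes were higher in AD than in control skin, as the proteases were. Of 3 general leukocyte genes (Ptprc, Coro1a, Laptm5) 1 rose in AD, Coro1a, with a log2 difference of 2.22 ± 0.47 (SE; edgeR adjusted p = 0.0413), and of 6 genes of T and innate lymphoid cells (Cd3e, Cd3d, Trbc1, Trbc2, Gata3, Thy1) 3 rose: Cd3d, Trbc1 and Trbc2. Over all genes the share that rose was 3.42%. The 3 general leukocyte genes summed to 10.6, 14.3 and 22.2 CPM in control, 41.2, 65.3 and 79.2 CPM in AD and 77.7, 41.4 and 23 CPM in La-Cer skin. The 6 genes of T and innate lymphoid cells summed to 234, 314 and 482 CPM in control skin. In AD they summed to 226, 361 and 434 CPM and in La-Cer to 370, 435 and 279 CPM, so the groups overlapped. From AD to La-Cer skin the median log2 difference was 0.16 for these 6 genes and -0.68 for the 3 general leukocyte genes. The part of these leukocytes in the mast cell gene levels was not tested. The genes whose levels were most like those of Cma1 over the 9 skin libraries were Tm2d1, Lonp2, Trem2, Emc3 and Elovl7 (Pearson's r of log2 CPM from 0.972 to 0.979), and over the 9 lung libraries they were Ndufa12-ps, Ap1s1, Tpi1, Smdt1 and Mrps25 (0.982 to 0.992). The likeness is a description over 9 libraries that share the groups.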

How the data were processed

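The authors deposited 1 table per tissue with raw read counts per Ensembl gene and FPKM, per the file headers; the FPKM were not tested. A SMARTER mRNA-Seq kit was used on 1.5 µg of total RNA per library, per the labels' protocols; bcl2fastq 2.17.1.14, cutadapt 1.9.1 and the build GRCm38 are named in the submitters' processing notes. The sources used here name neither aligner nor counter nor library strand, so overlapping and antisense reads cannot be told apart.

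Counts of the 9 libraries of a tissue were fitted with edgeR 4.0.16 in R 4.3.3 (TMM scaling, filterByExpr on the groups, quasi-likelihood test with robust estimation). The difference of effects between tissues was fitted over all 18 libraries without a term for the mouse, since library codes recur only in part. Benjamini-Hochberg adjustment ran over every gene tested in a comparison, and calls were made at an adjusted p under 0.05. The replicate block, other scaling, no filter on low counts, removal of the length and GC trend, DESeq2 1.42.0, limma 3.58.1 (voom with library weights), a fit of only the libraries compared and leaving out each library were tried as alternatives. With 3 against 3 samples an exact permutation test of 1 gene cannot go below p = 0.1, so only the fits across all genes were used. The procedure was also run on simulated counts with the same spread for every gene. Those counts lack the uneven libraries seen here, so no error rate for these data is drawn from them.

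All 10 members are named in every group. Of the other lists, most genes named are members called in a comparison (up to 4 a list), or else the 2 most abundant. Not every call in these lists is given, and the lists of other cell types serve mainly as sums. Gata2, Mcpt8 and Prss34 were named after their values were seen. The 5 genes most like Cma1 in a tissue were taken by Pearson's r of log2 CPM (prior count 2) among tested genes whose mean was 1 CPM or more. The members and lists were chosen with earlier results of these data known. Replicates are separate mice of a group as far as the labels say. Promoters are from RefSeq, GRCm38.p6, for 8 of 10 members.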

Additional observations from a re-analysis of the deposited data

Results flagged for a closer look

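For 5 genes the effect of AD treatment differed between skin and lung by an interaction test over all 18 libraries (edgeR, adjusted over all genes). The skin log2 effect minus the lung log2 effect was 5.14 for Cma1, 2.6 for Mcpt4, 3.55 for Tpsb2, 4.91 for Tpsab1 and 3.30 for Hdc. A higher AD effect in skin was called for 9.44% of all genes. Of 25 alternative settings, the call held in 25 for Cma1, 24 for Tpsb2, 19 for Hdc, 18 for Tpsab1 and 16 for Mcpt4. The effect of La-Cer against AD also differed between the tissues for Cma1, by -3.38, and for Hdc, by -4.27. Over all genes 1.25% were called in that direction, and the calls held in 9 of 25 settings for Cma1 and 14 for Hdc. In skin the sums of neutrophil and leukocyte markers differ between AD and control alongside these genes, at values given above, and their part in the differences was not tested.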

How the results depend on the processing

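The direction of every member called in a within-tissue comparison was kept in all 16 alternatives of that comparison, but the calls were not. In AD against control skin 5 members were called. The count was 0 with the replicate block, 0 after removal of the length and GC trend and 1 with only the libraries compared. With other scaling, no filter on low counts, DESeq2 and voom all 5 were kept. The settings other than leaving out a library called up to 7 members, and leaving out 1 library gave 0 to 6. In La-Cer against AD skin the count of 0 became 3 with no filter on low counts and 5 with DESeq2. In AD against control lung it became 1 with no filter, 1 with DESeq2 and 3 with voom, and leaving out 1 library gave 0 to 1. In La-Cer against AD lung the count of 1 became 0 with the replicate block and 0 after removal of the length and GC trend, and leaving out 1 library gave 0 to 1. In La-Cer against control lung voom called 4 in place of 0. For the AD effect in skin minus lung the 5 calls became 2 with the replicate block and 1 with only the libraries compared, and leaving out 1 library gave 2 to 5. For the La-Cer effect in skin minus lung the 2 calls became 0 with the replicate block, 1 with the length and GC trend removed and 4 with DESeq2, and leaving out 1 library gave 0 to 3. In control skin against control lung the 5 calls became 2 with the replicate block and 3 with only the libraries compared, and leaving out 1 library gave 3 to 6. Over all genes 8184 were called there, and 5359 to 12116 in the alternatives other than leaving out a library. The count over all genes moved in the other comparisons too. Apart from leaving out libraries, the alternatives gave 0 to 3746 in AD against control skin (main fit 1163). They gave 0 to 892 in La-Cer against AD skin (0) and 0 to 2088 in AD against control lung (8). They gave 12 to 5948 in La-Cer against AD lung (330) and 0 to 5229 in La-Cer against control lung (6). In skin minus lung they gave 1038 to 4062 for AD (2819) and 17 to 2050 for La-Cer (309). The cause was not tested.

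Values of members that were not called changed sign as follows. In La-Cer against control skin Cpa3 was -0.07 with the length and GC trend removed and -0.13 with voom, and Mrgprb2 was 0.04 with voom. In La-Cer against AD lung Cpa3 was 0.14 with the replicate block and Mcpt4 0.16 with voom, and in La-Cer against control lung Tpsb2 was 0.28 with voom. In the AD effect in skin minus lung Mrgprb2 was 0.17 with the replicate block and 0.85 with voom. In the La-Cer effect in skin minus lung Fcer1a was -0.78 with the replicate block and -1.53 with voom. Leaving out 1 library at a time gave ranges that crossed 0 for Mrgprb2 (-1.96 to 0.40) in AD against control skin, for Kit (-0.35 to 1.82) and Mrgprb2 (-0.83 to 1.74) in La-Cer against AD skin, and for Cpa3 (-0.27 to 0.63), Mrgprb2 (-2.29 to 1.59) and Tpsab1 (-2.16 to 0.63) in La-Cer against control skin. In lung they did so for Cpa3 (-0.74 to 1.09) and Kit (-0.60 to 0.22) in AD against control, for Cpa3 (-0.51 to 1.12), Mcpt4 (-0.49 to 0.59) and Tpsab1 (-0.08 to 1.15) in La-Cer against AD, and for Cma1 (-0.25 to 0.82), Cpa3 (-0.04 to 0.98) and Tpsb2 (-0.47 to 0.27) in La-Cer against control. They also did so for Mrgprb2 (-1.30 to 1.08) in the difference of the AD effect and for Fcer1a (-2.22 to 0.74) in that of the La-Cer effect.

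Over the 3 groups of a tissue, same-numbered libraries did not all deviate together (r from -0.73 to 0.26 over 9 pairs in skin and from -0.2 to 0.31 over 9 pairs in lung), and the replicate block is an alternative only. Control and La-Cer lung were the exception, with r of 0.31, 0.13 and 0.19, and there the replicate block called 0 members, as did the fit without it. The AD and La-Cer lung pairs behind the Ms4a2 call had r of -0.2, -0.11 and 0.17. Members with few counts, Fcer1a, Ms4a2 and Tpsab1 in skin and Mrgprb2 in lung, are limited by depth.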
